A study of Homo sapiens with 2 samples.

Results

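Cells low in S and G2/M genes were chosen by their share of unique molecular identifiers (UMIs), the tags that let PCR copies of a transcript be counted once. Of 3534 HCT116 cells, 2418 had 10000 UMIs or more and 50% or less of their UMIs from mitochondrial genes. The S share was the percent of UMIs of a cell from 11 S genes (*PCNA*, *MCM2* to *MCM7*, *CDC6*, *GINS2*, *UNG*, and *SLBP*), and the G2/M share was that from 9 G2/M genes (*TOP2A*, *CDK1*, *CCNB1*, *CCNB2*, *CENPF*, *MKI67*, *UBE2C*, *AURKA*, and *TPX2*). A cell was selected when both shares were below their medians over the 2418 cells. This held for 1012 cells (low cells), 788 of 1298 mock-treated and 224 of 1120 DAC-treated cells. The 1406 other cells were high in S genes only (197 cells), in G2/M genes only (197 cells), or in both (1012 cells).

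HCT116 is an established line of human colorectal carcinoma cells. Decitabine (DAC) is a deoxycytidine analog that traps DNA methyltransferases on newly made DNA, so that methylation marks are diluted as cells replicate. The DAC-treated culture was seeded on day 0 and was given DAC at 0.5 μM on day 1 and again on day 3, and both cultures are described with fresh medium on day 5 and harvest on day 7. Live cells of each trypsinized culture were used for 1 droplet library per culture, so that the spread between cultures is unknown, no test was made, and all intervals cover counting error only.

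In proliferating cells, cyclin D with CDK4 and CDK6 and then cyclin E with CDK2 phosphorylate the RB protein, which frees E2F transcription factors to turn on genes for DNA replication. Genes for mitosis follow later, driven by MYB-containing complexes and FOXM1 through a short promoter element, the cell cycle genes homology region (CHR). CDK inhibitors such as p21, encoded by *CDKN1A*, hold cells before S phase, and cells that have left the cycle or have just divided are low in both groups of genes.

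Promoters of the genes behind the rule carried the letters of these control elements. RefSeq sequences on GRCh38.p14, from 250 bases before to 50 bases after the start site, were found for 9 of the 11 S genes and 6 of the 9 G2/M genes, and both strands were searched. The E2F letters TTTCGCGC, TTTGGCGC, or TTTCCCGC were in 7 of the 9 S promoters and in 1 of the 6 G2/M promoters, against 2.74% of 35116 promoters. The CHR letters TTTGAA or TTTAAA were in all 6 G2/M promoters and in 0 of the 9 S promoters, against 24.0% of all. The promoter of each panel's gene with the most UMIs is shown, with the matched letters in capitals. *PCNA*, the DNA clamp of replication, is at chr20:5126573-5126872 on the minus strand, and *MKI67*, the gene of the Ki-67 antigen, is at chr10:128126374-128126673 on the minus strand.
PCNA: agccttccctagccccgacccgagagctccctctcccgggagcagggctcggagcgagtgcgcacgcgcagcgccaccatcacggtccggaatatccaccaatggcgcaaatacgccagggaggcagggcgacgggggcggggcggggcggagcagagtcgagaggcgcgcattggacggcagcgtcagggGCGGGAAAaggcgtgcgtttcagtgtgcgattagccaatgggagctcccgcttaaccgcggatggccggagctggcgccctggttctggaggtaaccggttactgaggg
MKI67: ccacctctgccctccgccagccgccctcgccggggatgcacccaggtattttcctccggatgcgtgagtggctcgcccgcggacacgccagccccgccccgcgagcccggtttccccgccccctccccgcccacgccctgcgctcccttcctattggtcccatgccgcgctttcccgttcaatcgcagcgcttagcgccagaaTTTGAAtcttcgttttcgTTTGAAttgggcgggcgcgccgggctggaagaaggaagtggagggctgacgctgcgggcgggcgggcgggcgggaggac
The *PCNA* match starts 59 bases before the start site and is the reverse complement of TTTCCCGC, and the matches in *MKI67* start 47 and 29 bases before it. A match of letters is a description of the sequence and not evidence of a bound factor.

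The low cells made up 60.7% of the mock-treated cells (exact 95% interval, 58.0 to 63.4) and 20% of the DAC-treated cells (17.7 to 22.5). The share was 40.7 percentage points lower in the DAC-treated library, with a ratio of 3.04 between the libraries. Cells high in both groups of genes made up 17.9% of mock-treated and 69.6% of DAC-treated cells. With pooled medians as cuts, low cells and cells high in both are equal in number (1012 each). Their opposite order is therefore not a separate result. Cells high in S genes only made up 9.63% and 6.43%, and cells high in G2/M genes only 11.8% and 3.93%. By panel, 72.5% of mock- and 23.9% of DAC-treated cells were below the S median, and 70.3% and 26.4% below the G2/M median. These are the values that the rule used. When every cell was thinned to 10000 UMIs, the low cells were 57.6% and 17.1%. The DAC share was 8.48% with the 40th percentile as cut, and 12.6% among cells with 20% or less mitochondrial UMIs, where 88 DAC-treated low cells were left.

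**Figure D1:**
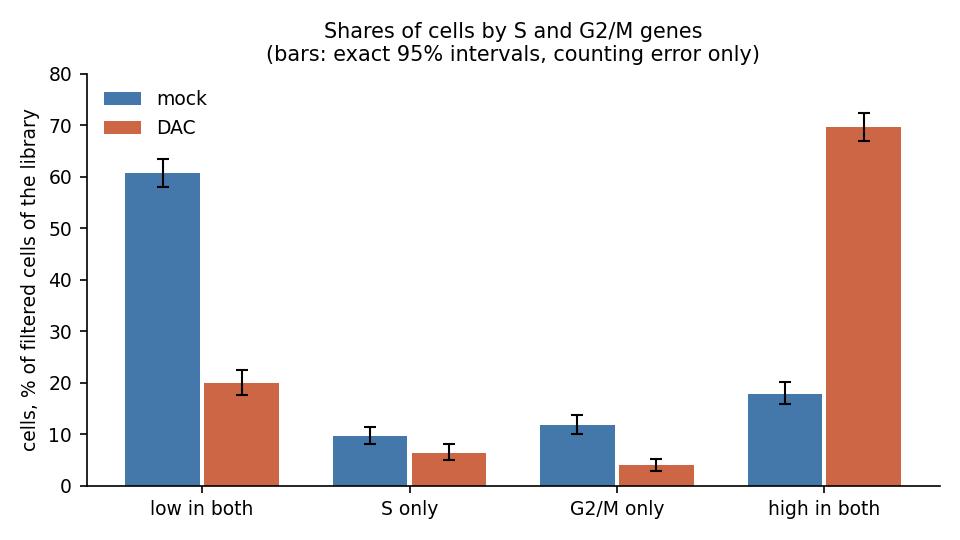
Percent of the filtered cells of each library (y axis) in each class of S and G2/M genes (x axis), with exact 95% intervals for counting error. Low cells were 60.7% of mock- and 20% of DAC-treated cells, and cells high in both were 17.9% and 69.6%.

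The median over both libraries was 0.0470% of UMIs for the S genes and 0.0272% for the G2/M genes. At the S median, the nearest cell inside had 0.0467% and the nearest outside 0.0471%, and at the G2/M median 0.0271% and 0.0272%. Within 10% of a cut were 24 mock- and 22 DAC-treated low cells, which is 3.05% and 9.82% of the low cells of each library. The selected cells were not equally low in both libraries. The median S share of low cells was 0.0169% in mock- and 0.0272% in DAC-treated cells, and the median G2/M share was 0.00507% and 0.0105%. No UMI of any G2/M gene of the rule was found in 164 mock- and 8 DAC-treated low cells. Against the medians of their own library, 58.1% of the mock- and 100% of the DAC-treated low cells were low in both. With medians taken within each library, which by construction put the same part of each library below each cut, the shares were 35.3% and 34.9%.

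**Figure D2:**
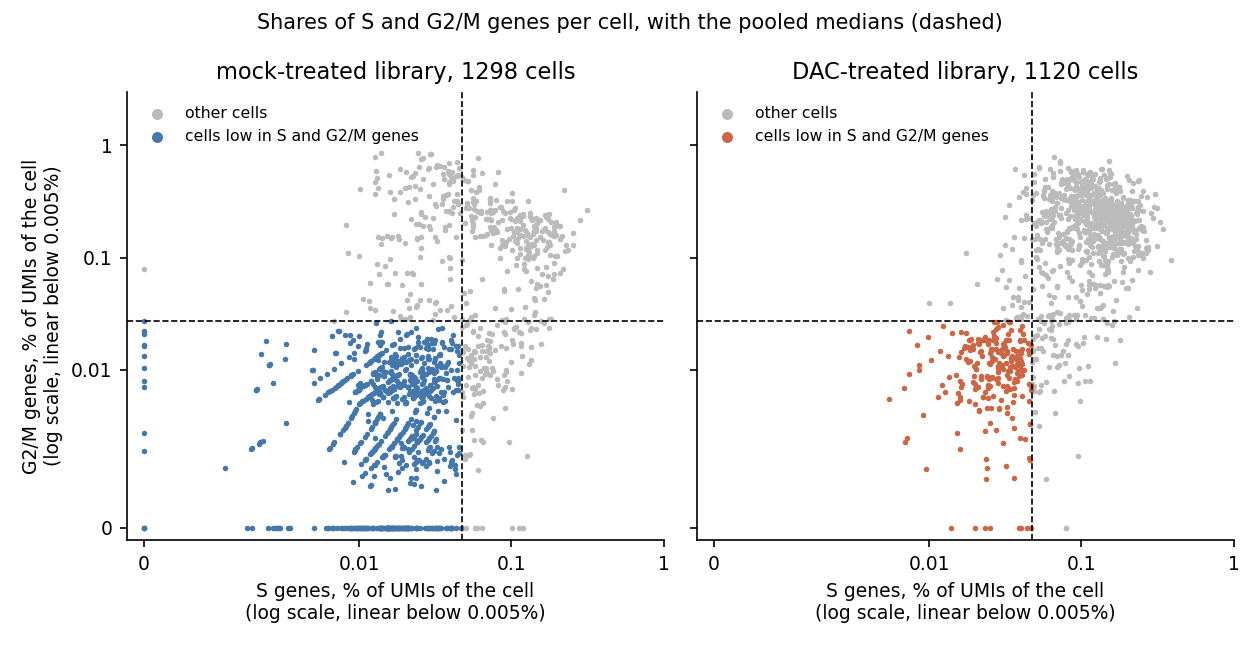
Share of UMIs from the S genes (x axis, %) and the G2/M genes (y axis, %) in every filtered cell, on log axes that are linear below 0.005%, with the medians as dashed lines. The lower left field holds 788 of 1298 mock-treated and 224 of 1120 DAC-treated cells, and the DAC-treated low cells lie closer to the cuts.

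Low cells had a median of 30370 UMIs (10632 to 130462) in mock- and 43941 UMIs (10197 to 99375) in DAC-treated cells, and 26145629 and 10140539 UMIs in total. Mitochondrial genes took a median of 18.1% and 23.2% of UMIs of low cells, against 15.8% and 16.8% in the other cells. Genes of ribosomal proteins took 24.7% and 14.2%, against 21.9% and 15.2% in the other cells. At 10000 UMIs per cell, low cells had a median of 2705 and 2930 genes detected, against 2915 and 3069 in the other cells. These values moved with the conditions and the classes, and their part in the ratios given here was not tested. The libraries shared 12 barcodes, and those of 2 mock- and 0 DAC-treated low cells were among them. The filter left out 485 mock- and 631 DAC-treated cells.

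The markers proposed for these cells, *CDKN1A* and *CCND1*, did not mark them in mock-treated cells. *CDKN1A* (chr6:36676460-36687337 on hg38) had 104 CPM (UMIs per 1000000 UMIs, Poisson interval 100 to 108) in mock-treated low cells. The level was 80 in cells high in S genes only, 128 in cells high in G2/M genes only, and 137 in cells high in both. In DAC-treated cells, the level was 340 in low cells (329 to 352), 211 in cells high in S genes only, 338 in cells high in G2/M genes only, and 171 in cells high in both. Low cells were therefore at the top of the order after DAC treatment only, together with cells high in G2/M genes only, whose intervals overlapped. Compared with all other cells, *CDKN1A* was 0.852-fold (0.807 to 0.900) in mock-treated and 1.86-fold (1.78 to 1.93) in DAC-treated low cells.

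*CCND1* (chr11:69641156-69654474 on hg38), the gene of cyclin D1, had 485 CPM in mock-treated low cells, between the 378 of cells high in both and the 580 of cells high in S genes only. In DAC-treated cells, low cells (1662 CPM, 1637 to 1687) and cells high in S genes only (1701 CPM, 1655 to 1747) had overlapping intervals, above 1188 in cells high in both and 1034 in cells high in G2/M genes only. A pair of markers is too few to name a cell type, and the cells are called by their rule.

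Epithelial genes were checked in the low cells. Keratins of simple epithelia were abundant, with *KRT8* at 1216 CPM in mock- and 2364 in DAC-treated low cells and *KRT18* at 2076 and 5232, while *EPCAM* had 352 and 166 and *CLDN4* had 107 and 29.0. Of 12 markers of blood, stromal, and endothelial cells, 2 (*COL1A1* and *CD68*) had 50 UMIs or more over all low cells, and the 12 summed to 19.7 CPM in mock- and 34.3 in DAC-treated low cells, against 15.6 and 31.4 in the other cells. The leukocyte marker *PTPRC* had 0 UMIs in mock- and 3 in DAC-treated low cells, and no UMI was found for *HBB* and *COL1A2*.

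How the low cells differed from the other cells of their library is a description, since the same cells were used for the rule. Among 9652 genes with 200 UMIs or more in each library, 23 genes (0.238%) in mock- and 62 genes (0.642%) in DAC-treated cells were at least 2-fold higher in low cells, and 513 genes (5.31%) and 447 genes (4.63%) were at least 2-fold lower. Of these, 9 were higher and 394 were lower in both libraries. Genes of replication and mitosis outside the rule were low. Of 24 other S genes with enough UMIs, 23 in mock- and all 24 in DAC-treated cells were at least 2-fold lower in low cells, with a median log2 ratio of −2.90 and −2.87, and of 30 other G2/M genes all 30 were, with medians of −5.28 and −4.25. The lowest genes outside the rule were *NUF2*, *ESCO2*, *NCAPH*, *DLGAP5*, *NCAPG*, *CKAP2L*, *KIF20A*, *SGO1*, *BUB1*, and *SPC25*, which act in chromosome condensation, cohesion, and segregation. *NUF2*, a subunit of the kinetochore, had 0.765 CPM in mock-treated low cells against 59.3 in the other mock-treated cells, and 0.888 against 58.9 after DAC treatment.

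The genes highest in low cells of both libraries were *AC009133.1*, *AHNAK2*, *SMIM1*, *CLIC3*, *TP53INP1*, *ABTB1*, *RAB3D*, *MXD4*, *CALCOCO1*, and *PTGES*. *AHNAK2*, which encodes a very large scaffold protein, had 114 CPM in mock-treated low cells against 45.1 in the other cells, and 108 against 35.1 in DAC-treated cells. Its level followed the classes in both libraries, from 114 in low cells through 82.5 and 42.8 to 30.8 in cells high in both for mock, and 108, 88.3, 52.1, and 29.9 for DAC. *MXD4*, a MAX partner that opposes MYC, had 46.2 CPM against 22.9 in mock-treated cells and 125 against 47.2 in DAC-treated cells. Its intervals overlapped those of cells high in S genes only in both libraries (43.8 and 119 CPM) and of cells high in G2/M genes only after DAC treatment (118 CPM). *TP53INP1*, a gene that acts in arrest and autophagy, had 7.34 against 3.34 and 19.1 against 7.88, and its intervals also overlapped those of cells high in S genes only (5.20 and 15.1 CPM) and, after DAC treatment, of cells high in G2/M genes only (15.6 CPM). Outside the rule for naming and chosen after its values were seen, the nuclear RNA *NEAT1*, which builds paraspeckles, was higher in low cells than in each other class of both libraries, with 851 CPM in mock- and 1150 in DAC-treated low cells against 433 and 452 in cells high in both.

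**Figure D3:**
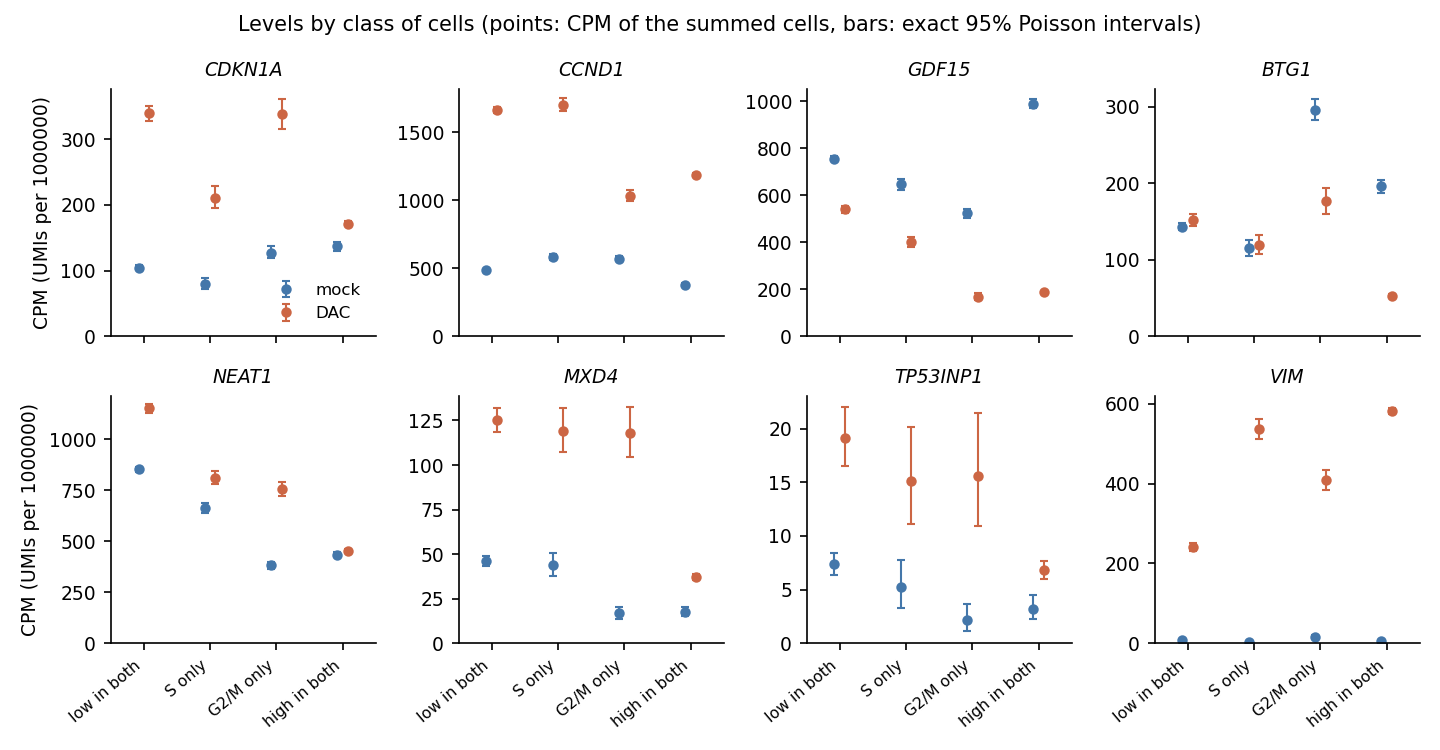
Levels in CPM (y axes) of 8 genes in the 4 classes of cells (x axes) of mock- and DAC-treated libraries, with exact Poisson 95% intervals. *CDKN1A* was higher in low cells than in cells high in both after DAC treatment (340 against 171) and not in mock-treated cells (104 against 137), and *VIM* was lowest in low cells after DAC treatment (241 against 583).

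DAC- and mock-treated low cells were then compared by their summed UMIs. Of 12507 genes with 50 UMIs or more over the low cells, 1890 (15.1%) were at least 2-fold higher in DAC-treated low cells and 837 (6.69%) were at least 2-fold lower. The median log2 ratio of DAC to mock (log2 DAC/mock) over these genes was 0.22 in low cells and 0.12 in the other cells, so that a ratio of 0.22 is where a middle gene lies. Median-of-ratios scaling, which shifts all log2 ratios by 0.21, gave 1343 higher and 1230 lower genes. A gene near 0 in mock-treated low cells reached 50 UMIs only through DAC-treated cells and had to come out higher, and 661 of the 1890 higher genes had fewer than 50 UMIs in mock-treated low cells. Values of the other cells are those of a pool whose make-up differed between the libraries, since cells high in both were 232 of 510 other mock-treated and 780 of 896 other DAC-treated cells. The log2 ratio was higher in low cells than in the other cells for 62.1% of the genes.

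*CDKN1A* was 3.26-fold higher in DAC-treated low cells (3.10 to 3.43, log2 1.71), 2.64-fold in cells high in S genes only, 2.65-fold in cells high in G2/M genes only, and 1.25-fold in cells high in both. *CCND1* was 3.43-fold higher (3.35 to 3.51, log2 1.78), 2.93-fold in cells high in S genes only, 3.14-fold in cells high in both, and 1.81-fold in cells high in G2/M genes only. Among the other CDK inhibitors, *CDKN2D*, the gene of p19INK4D, went from 4.55 to 32.5 CPM (log2 2.84). *CDKN2B*, the gene of p15INK4B, went from 15.1 to 20.5 CPM in low cells and from 16.4 to 8.33 in the pooled other cells, among which cells high in S genes only went from 8.58 to 14.2. *CDKN2A*, the gene of p16INK4A and ARF, had 100 and 80.2 CPM, *CDKN1B* (p27) 17.6 and 9.86, and *CDKN1C* (p57) 26.7 and 26.7. In all, 2 of 6 CDK inhibitors with enough UMIs were at least 2-fold higher and 0 were lower, against 15.1% and 6.69% of all genes counted, and *CDKN2C* had too few UMIs.

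Genes of the G1 engine moved in both directions. Of 17 G1 cyclins, kinases, and genes of the RB and E2F families, 5 were at least 2-fold higher, 1 was lower, and the median log2 DAC/mock was 0.40, against 15.1% and 6.69% of all genes counted. The kinase gene *CDK6* and the D cyclin genes *CCND1* and *CCND3* made up 3 of the 5, with *CDK6* at 37.9 and 144 CPM (log2 1.92) and *CCND3* at 7.76 and 23.2 (log2 1.58). *CCNE1*, the gene of cyclin E1, had 13.8 and 31.6 CPM, and *CDC25A*, a phosphatase that activates CDKs, had 1.30 and 2.96. Both were within 2-fold with median-of-ratios scaling (log2 0.98). The repressor gene *E2F5* was the lower one, with 13.9 and 6.90 CPM (log2 −1.01), and was within 2-fold with medians taken within each library (−0.88). *CDK4*, the other kinase gene that acts with cyclin D, had 111 and 71.6 CPM (log2 −0.64). *MYC*, the growth factor-responsive transcription factor, had 170 and 109. *E2F1* (1.68 and 2.47 CPM), *RB1* (12.4 and 18.8), and *RBL2* (14.3 and 10.4) were within 2-fold.

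Genes of the panels themselves were not even between DAC- and mock-treated low cells, which is what the rule left. The median log2 DAC/mock was 0.42 over the 11 S genes and 1.28 over the 9 G2/M genes of the rule, and 0.28 over 22 other S genes and 1.00 over 21 other G2/M genes. Over the alternatives, these medians went from 0.21 to 1.59 and from 0.33 to 3.59 for the genes of the rule, and from 0.06 to 1.87 and from 0.79 to 3.15 for the other genes, with the highest value of each when medians were taken within each library. The residual mitotic transcripts were at a low level, with *CCNB1*, the gene of cyclin B1, at 5.05 CPM in mock- and 19.5 in DAC-treated low cells against 211 and 260 in the other cells. In that setting, *CCNB2* turned from a log2 DAC/mock of −1.90 to 0.59.

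*GDF15*, a secreted stress cytokine, differed from class to class. It had 755 CPM in mock-treated and 540 in DAC-treated low cells, 1.40-fold lower, near the 1.61-fold of cells high in S genes only (647 and 401 CPM). It was 3.10-fold lower in cells high in G2/M genes only (523 and 169 CPM) and 5.24-fold lower in cells high in both (990 and 189 CPM). After DAC treatment, low cells had the highest level of the 4 classes, while among mock-treated cells those high in both had it.

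Genes of growth arrest had a median ratio near that of all genes. Of 20 such genes, 3 were at least 2-fold higher and 1 lower, against 15.1% and 6.69% of all genes counted. Their median log2 DAC/mock was 0.18 in low cells (−0.03 with median-of-ratios scaling), 0.27 in cells high in S genes only, and 0.04 in cells high in both. *BTG1*, an antiproliferative gene that binds a deadenylase complex, had 143 and 152 CPM in low cells (log2 0.08, and −0.21 to 0.19 over the alternatives) and 207 and 63.9 in the other cells (log2 −1.70), but in cells high in S genes only it was as even as in low cells (115 and 119 CPM, log2 0.05). *GADD45A*, a stress sensor of DNA damage, had 145 and 96.3 CPM in low and 289 and 74.3 in the other cells. *PDCD4*, an inhibitor of translation, had 44.6 and 21.1 CPM in low and 43.9 and 9.21 in the other cells. Its log2 DAC/mock was −1.08 in low cells (−1.29 to −0.96 over the alternatives) and −1.23 in cells high in S genes only. In DAC-treated cells, low cells were above cells high in both in these 3 genes, but *BTG1* was higher in cells high in G2/M genes only (176 CPM), *GADD45A* was higher in cells high in S genes only (132 CPM), and *PDCD4* was at a like level there (22.2 CPM). *KLF6*, a zinc-finger factor that induces p21, had 64.8 and 183 CPM (log2 1.5) in low cells. *TXNIP*, an inhibitor of thioredoxin, had 0 UMIs in mock- and 95 in DAC-treated low cells, at least 81.6-fold higher against a floor of 3 counts per library.

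Of 20 secreted genes of senescent cells, 11 had enough UMIs, and 6 of them were at least 2-fold higher and 1 lower, against 15.1% and 6.69% of all genes counted. Of the 6, 4 had fewer than 50 UMIs in mock-treated low cells, among them *CCL20*, so that they reached the limit only with the UMIs of the library where they are high, and the count is a description. The median log2 DAC/mock of the 11 was 1.59, and 0.59 after thinning to 10000 UMIs. *AREG*, a ligand of the EGF receptor, was the lower one, from 2224 to 897 CPM. *TIMP2*, an inhibitor of matrix metalloproteinases, had 36.2 and 109 CPM, *TIMP1* had 376 and 584, and *PLAUR*, the urokinase receptor, had 76.8 and 87.9. The chemokine gene *CCL20* had 0 UMIs in mock- and 84 in DAC-treated low cells. Classical members of this list, *IL6*, *IL1B*, *MMP3*, and *MMP10*, had no UMI in any low cell.

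The median log2 DAC/mock of interferon-stimulated genes was above 0 in all 4 classes, with exceptions among the genes. Of 21 such genes, 17 were at least 2-fold higher and 0 were lower in low cells, against 15.1% and 6.69% of all genes counted. Of the 17, 6 had fewer than 50 UMIs in mock-treated low cells. The median log2 DAC/mock was 3.27 in low cells, and 2.30, 3.07, and 3.09 in cells high in S genes only, in G2/M genes only, and in both. In these other classes, 16, 16, and 12 of the 21 genes had fewer than 50 UMIs in mock-treated cells, so that their medians rest mostly on few UMIs. *IFI27*, a mitochondrial protein gene, had 5.97 and 1172 CPM. *ISG15*, the ubiquitin-like modifier, had 260 and 1684 CPM, and *IFI6* had 32.0 and 579. *IFITM3* and *IFITM2*, which block viral entry and are close in sequence, had 419 and 426 CPM and 143 and 106.

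Cancer-testis genes are silenced by promoter methylation in most somatic cells. Of 30 such genes, 26 had enough UMIs, but 17 of these had 0 UMIs and 22 had fewer than 50 UMIs in mock-treated low cells, so that they reached the limit only with the UMIs of DAC-treated cells, and those at or near 0 in mock-treated low cells had to be higher. Their values are therefore given gene by gene. *MAGEA4* (chrX:151912495-151925171 on hg38) had 0 and 2057 UMIs in low cells, at least 1768-fold higher, and 203 CPM against 130 in the other DAC-treated cells. *VCX3A* and *VCX3B*, near-identical copies between which reads may be divided, had 136 and 183 CPM in DAC-treated low cells. The imprinted RNA *MEG3* (chr14:100779410-100861031 on hg38) had 1 UMI in mock-treated and 2439 UMIs in DAC-treated low cells (241 CPM). *TKTL1*, a transketolase-like gene of the X chromosome, had 1 and 1207 UMIs, and the hair keratin-associated gene *KRTAP3-1* had 2 and 2186. The other genes among the 10 highest were *PPP1R14A*, *PNMA5*, *LINC00958*, and *PAGE2*.

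Of the genes named in single cells by the study, *SFRP1*, an antagonist of WNT, had 0 UMIs in mock- and 105 in DAC-treated low cells, and *CHFR*, a mitotic checkpoint ligase, had 3 and 51. *FBLN2* had 1 and 65, *ICAM4* had 2 and 68, and *IFI44* had 8 and 68. *ERVMER61-1* (2 and 19 UMIs), *IFI16* (3 and 9), and *ERVW-1* (3 and 3) had too few UMIs to be counted.

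Most genes of the amino acid response and of the immediate early response were lower in DAC-treated low cells, with exceptions in each. Of 19 targets of ATF4, 13 were at least 2-fold lower and 0 were higher, against 6.69% and 15.1% of all genes counted. Their median log2 DAC/mock was −1.25 in low cells, −0.99 in cells high in S genes only, −1.88 in cells high in G2/M genes only, and −1.93 in cells high in both. *ASNS*, asparagine synthetase, was among the 10 lowest genes with 245 and 29.6 CPM (8.27-fold lower), and *PSAT1*, of serine synthesis, had 198 and 37.4, while *ATF5*, a transcription factor gene, had 50.8 and 86.8 (log2 0.77). Of 14 immediate early genes, 8 were at least 2-fold lower and 0 were higher, against the same shares of all genes, with a median of −1.19. *FOSB*, of the AP-1 family, had 61.4 and 7.59 CPM, and *IER3* had 1122 and 461, while *DUSP1*, a phosphatase of MAP kinases, had 15.9 and 28.6 (log2 0.85). The lowest genes of all were *ADGRF1*, an adhesion G protein-coupled receptor gene (60.9 and 2.86 CPM, log2 −4.41), *LURAP1L* (28.3 and 2.47), *AC008014.1*, *LEMD1*, *ARMC4*, *HIST1H4C*, *AL034417.2*, *WNT16*, *ASNS*, and *RAB26*.

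Heat shock genes had a higher median in DAC-treated low cells (log2 0.95), with 5 of 11 at least 2-fold higher and 0 lower, against 15.1% and 6.69% of all genes counted. The median was higher still in cells high in both (1.53), with 1.04 in cells high in S genes only and 0.91 in cells high in G2/M genes only. *HSP90AA1*, the inducible HSP90 chaperone, had 1964 and 2735 CPM in low and 2557 and 4870 in the other cells. *HSPA1A*, which shares nearly all of its coding sequence with *HSPA1B*, had 11 UMIs in mock- and 485 in DAC-treated low cells. Of the 485 UMIs, 90 came from 1 cell. Genes of ribosome biogenesis were near 0 (median 0.08, and −0.13 with median-of-ratios scaling), with 1 of 20 higher and 0 lower, against the same shares of all genes. *NPM1*, a nucleolar chaperone, had 1330 and 1059 CPM in low cells and 1375 and 1510 in the other cells.

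Genes of the DNA methylation machinery were within 2-fold for 9 of 11, with 1 higher and 1 lower, against 15.1% and 6.69% of all genes counted. *DNMT1*, the maintenance methyltransferase that DAC traps, had 51.3 and 72.2 CPM in low and 201 and 259 in the other cells. *TET1*, a dioxygenase that oxidizes methylcytosine, had 8.68 and 3.75 CPM in low cells and 4.06 and 4.49 in the other cells. *MBD3*, of the NuRD complex, had 17.0 and 38 CPM. Over the alternatives, the log2 DAC/mock in low cells went down to 0.95 for *MBD3* and up to −0.80 for *TET1*, both within 2-fold. Of 8 epithelial genes, 1 (*KRT18*) was at least 2-fold higher and 3 were lower, against 15.1% and 6.69% of all genes counted. Among the lower ones were *CLDN4*, a tight junction gene (107 and 29.0 CPM), and *EPCAM* (352 and 166). The log2 DAC/mock of *EPCAM* was −1.09 and went up to −0.90, within 2-fold, over the alternatives. Of 19 genes of intestinal differentiation, 5 had enough UMIs, of which 3 reached the limit only with the UMIs of DAC-treated cells, *KRT20* among them with 0.459 and 7.30 CPM.

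**Figure D4:**
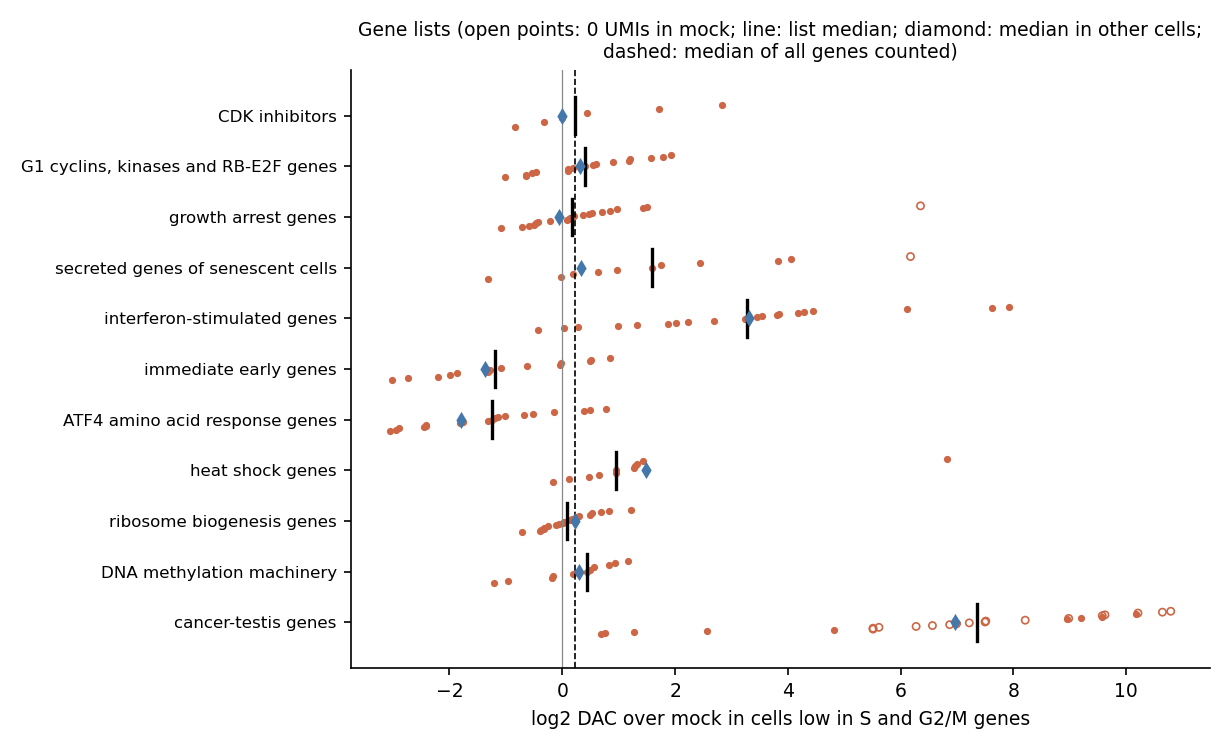
Log2 ratio of DAC- to mock-treated low cells (x axis) for the genes of 11 lists (y axis), with the list median (line), the list median in the other cells (diamond), and the median of all 12507 genes counted (dashed, 0.22). Interferon-stimulated genes (median 3.27) lie to the right and ATF4 targets (−1.25) to the left. Cancer-testis genes, 17 of which are lower limits, also lie to the right. Of these 26 genes, 22 were counted only through the UMIs of DAC-treated low cells, so that the place of this list is not a separate result.

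For 7655 genes with 100 UMIs or more in low and other cells of both libraries, the log2 DAC/mock of low cells was set beside that of the other cells. It was higher by 1 or more for 44 genes and lower by 1 or more for 6 genes. The 5 genes with the widest gap upward were *ARRDC4* (−0.83 in low and −2.97 in the other cells), *BTG1*, *UPP1* (0.53 and −1.25), *HIST1H1C* (2.52 and 0.82), and *CCNB1* (1.95 and 0.30), which is a gene of the rule, so that its value in low cells depends on the selection. *ARRDC4*, an arrestin-domain gene that limits glucose uptake, had 23.0 and 12.9 CPM in low cells and 25.7 and 3.27 in the other cells. *UPP1*, uridine phosphorylase, had 82.3 and 119 CPM in low and 236 and 99.6 in the other cells. In cells high in S genes only, *UPP1* had 78.2 CPM in mock- and 203 in DAC-treated cells, a wider gain than in low cells, and the log2 DAC/mock of *HIST1H1C* was 2.70, while *ARRDC4* had 21.9 and 6.12, a wider loss.

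The 5 genes with the widest gap downward were *HIST1H4C* (−3.11 and −1.40), *CPOX* (−1.34 and −0.14), *CKS1B* (−1.47 and −0.28), *HOXB5* (0.02 and 1.07), and *KITLG* (−2.69 and −1.68). *HIST1H4C*, a replication-dependent histone H4 gene, had 266 CPM in mock- and 30.9 in DAC-treated low cells, against 1735 and 658 in the other cells, and its log2 DAC/mock in low cells was −1.06 with medians taken within each library. *CPOX*, of heme synthesis, had 86.4 and 34.2 CPM in low and 47.9 and 43.3 in the other cells. In cells high in S genes only, the log2 DAC/mock was close to that of low cells for *CPOX* (−1.36) and *CKS1B* (−1.46), and it was −2.54 for *HIST1H4C* and −2.43 for *KITLG*. *KITLG*, the ligand of the KIT receptor, had 221 and 34.2 CPM in low and 164 and 50.9 in the other cells. *VIM*, the gene of the intermediate filament vimentin, was chosen after its values were seen. It had 6.92 CPM in mock- and 241 in DAC-treated low cells, while the other classes of DAC-treated cells had 408 to 583 CPM.

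**Figure D5:**
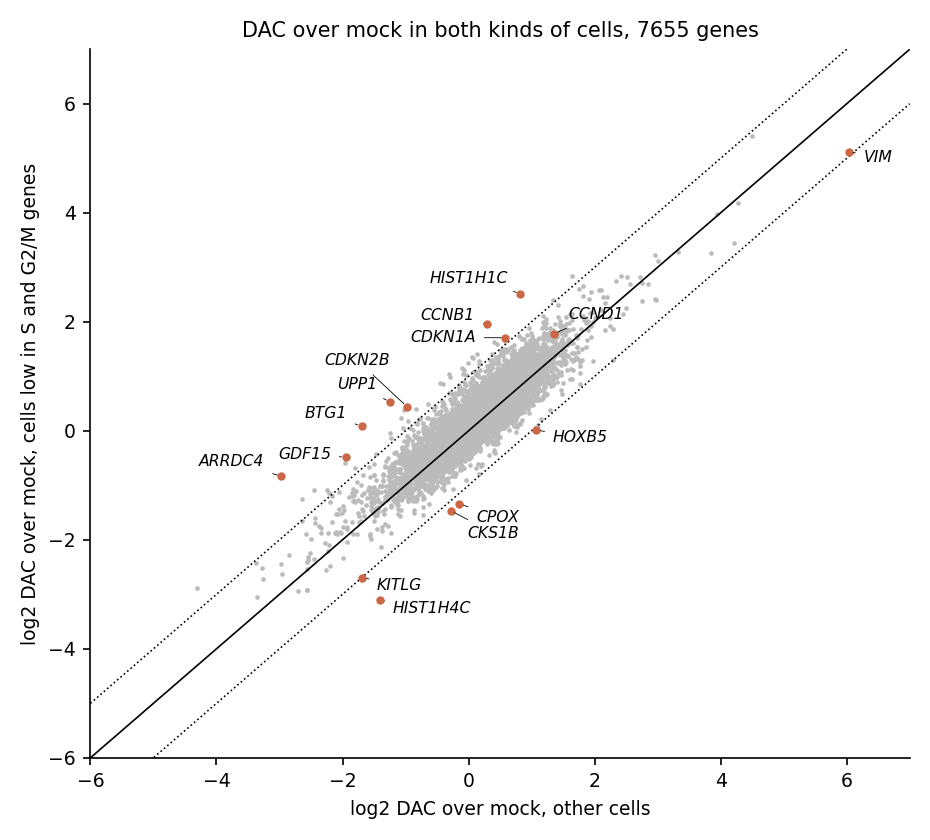
Log2 ratio of DAC- to mock-treated cells in low cells (y axis) against the same in the other cells (x axis) for 7655 genes, with the line of equality and dotted lines at a difference of 1. Most genes lie near the line, 44 lie above the upper and 6 below the lower dotted line.

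Single low cells varied widely in these genes. After thinning to 10000 UMIs, *CDKN1A* was detected in 41.0% of mock-treated low cells (37.5 to 44.5) and in 55.3% of the other mock-treated cells (50.9 to 59.7), and in 80.8% of DAC-treated low cells (75 to 85.7) and 67.2% of the other DAC-treated cells (64.0 to 70.3). The median level of DAC-treated low cells was 215 CPM with quartiles of 97.7 and 435, against 117 with quartiles of 51.0 and 230 in the other cells. Among DAC-treated cells, the share of low cells was 12.8% of 337 cells without a *CDKN1A* UMI, 15.1% of 279 cells with 1, 20.3% of 286 cells with 2 to 3, 30.8% of 159 cells with 4 to 6, and 54.2% of 59 cells with 7 or more (40.8 to 67.3). The remaining 27 of those 59 cells were not low cells. *GDF15* was detected in 64.7% of DAC-treated low and 40.4% of other DAC-treated cells, with quartiles of 27.1 and 835 CPM in the low cells.

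Genes near 0 in mock-treated cells were detected in part of the DAC-treated low cells. *MEG3* was detected in 52.2% (45.5 to 58.9) and *MAGEA4* in 48.7% (41.9 to 55.4) of thinned DAC-treated low cells, against 46.1% and 35.7% of the other DAC-treated cells. In thinned mock-treated low cells both had 0 of 788 cells with a UMI, which allows a share of cells with a UMI of up to 0.467% and does not limit the share of cells that express the genes. *CLIC3*, a chloride channel family gene, was detected in 44.2% of DAC-treated and 18.9% of mock-treated low cells.

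The 14099 genes of the study's selection, which never passed 2 UMIs in a mock-treated cell, were summed in each class of DAC-treated cells. They took 1.38% of the UMIs of low cells and 1.20% of those of the other cells, a ratio of 1.15 (1.14 to 1.16). Cells high in S genes only (1.57%) and in G2/M genes only (1.61%) had more than low cells, and cells high in both had 1.15%. In mock-treated cells, where the selection was made, the same genes took 0.470% of the UMIs of low cells and 0.437% of those of the other cells. Per 10000 UMIs, DAC-treated low cells had a median of 126 such UMIs (47 to 1040) and the other DAC-treated cells 109.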

How the data were processed

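UMI counts per gene and cell were deposited by the authors for 1 mock-treated and 1 DAC-treated library of HCT116 cells, prepared with a 3′ droplet kit. Per the labels and the study's methods, reads were mapped to hg38 and counted with Cell Ranger, and the annotation release and any filter on cells are not given in the sources used here. The deposited counts were whole numbers for 33538 genes without normalization. The treatment text of the label is the same for both libraries, and the treatment field gives mock and DAC.

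Cells were filtered and put in classes by the rule. For each class, UMIs were summed per gene and scaled to the class total (CPM), and ratios were taken for genes with 50 UMIs or more over the low cells. A count of 0 was entered as a floor of 3 counts per library, and the ratio is then a lower limit. Sums have exact Poisson, shares exact Clopper-Pearson, and ratios exact conditional intervals at 95%. Cells of 1 library are not replicates, and called genes are those past 2-fold. Doublets were not called, since doublets of 1 line carry no marker. Cells were thinned to 10000 UMIs without replacement. The members and all lists were chosen with earlier results of these data known.

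Named genes were *CDKN1A* and *CCND1*, the genes of the rule, every counted CDK inhibitor and G1 gene, the 10 highest and 10 lowest genes by DAC/mock (200 UMIs or more) and by low over other cells, the 5 with the widest gap in each direction, 4 genes with the most UMIs and both extremes of every other list, and genes named by the study. These were 168 genes, of which the text gives those that describe the results. The alternatives are given in the closing section. Positions were taken from GENCODE release 44. Python 3.11.15, numpy 2.4.6, scipy 1.17.1, pandas 2.3.3, and matplotlib 3.10.9 were used. In simulated data for DAC against mock in low cells (12047 genes), 177 of 200 changed genes came out within 0.25 (log2) of the simulated ratio. The 95% interval held the simulated ratio for 189 of the 200, and 27 unchanged genes passed 2-fold. The changed genes all had 200 UMIs or more in mock-treated low cells, and simulated cells of a library shared the same profile. Genes with fewer UMIs and the spread between cells were therefore not covered. The results of 1 list of genes are not reported here.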

Additional observations from a re-analysis of the deposited data

Results flagged for a closer look

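Of the named genes, 5 had 100 UMIs or more in low and other cells of both libraries and a DAC to mock ratio whose exact 95% interval lay above 1 in low cells and below 1 in the other cells, or the reverse. The difference was not tested, and genes on opposite sides of 0 that missed these limits, such as *BTG1* and *TET1*, are not counted. The log2 DAC/mock of *UPP1* was 0.53 in low and −1.25 in the other cells, that of *CDKN2B* was 0.44 and −0.98, and that of *PLAUR* was 0.19 and −0.27. These values do not set low cells apart from each other class, since cells high in S genes only also had a higher level after DAC treatment in *UPP1* (78.2 and 203 CPM), *CDKN2B* (8.58 and 14.2 CPM, 38 and 44 UMIs), and *PLAUR* (62.1 and 81.2 CPM). That of *HSPD1*, a mitochondrial chaperone, was −0.16 and 0.44, and that of *NPM1* was −0.33 and 0.13. Cells high in G2/M genes only also had a lower level after DAC treatment in *HSPD1* (834 and 595 CPM) and *NPM1* (1484 and 1036 CPM). Since median-of-ratios scaling moves log2 ratios of low cells by 0.21, the side of *PLAUR* depends on the scaling. Over the alternatives, the value in low cells went from −0.37 to 0.08 for *HSPD1* and from −0.54 to 0.08 for *NPM1*, with 0.08 among cells with 20% or less mitochondrial UMIs for both.

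Cells outside the filter, which entered no comparison, also had UMIs of both markers. In 631 DAC-treated cells left out, *CDKN1A* had 72.6 CPM (65.1 to 80.9), against 38.7 (31.8 to 46.7) in 485 mock-treated cells left out. *CCND1* had 421 CPM (403 to 440) in those DAC-treated cells against 155 (141 to 170).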

How the results depend on the processing

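With 1 library per condition, no alternative measures the spread between cultures, no replicate could be left out, and no paired analysis was possible because each condition has 1 sample. Of 80 values recomputed for the main results, 42 stayed within the counting interval (or within 1.5 times for counts) and 38 moved. A reversal was defined only for the ratios of *CDKN1A*, *CCND1*, and the selected genes, and 0 were found. Shares and gene counts could not be labeled as reversed, also where the difference in shares was nearly absent. The shares in mock- and DAC-treated cells were 57.6% and 17.1% after thinning to 10000 UMIs, 48.9% and 8.48% with the 40th percentile as cut, and 35.3% and 34.9% with medians within each library. The DAC share was 12.6% among cells with 20% or less mitochondrial UMIs, and the mock share was 67.1% with other S and G2/M genes.

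The log2 DAC/mock of *CDKN1A* and *CCND1* was 1.97 and 1.81 after thinning, 1.37 and 1.69 with medians within each library, 1.82 and 1.82 at the 40th percentile, 1.81 and 1.88 without mitochondrial UMIs, 1.61 and 1.96 at 20% or less mitochondrial UMIs, 1.97 and 1.82 without the 5% of cells with the most UMIs, 1.5 and 1.57 with median-of-ratios scaling, and 1.91 and 1.81 as a mean of per-cell CPM. That of *CDKN1A* was 1.58 in cells with 20000 UMIs or more. Genes at least 2-fold higher were 1149 after thinning. With 200 UMIs or more per gene, 1050 were higher and 522 lower, since fewer genes were counted, and with a 1.5-fold limit 3774 and 1798.

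The ratio of selected genes was 1.27 with medians within each library, 1.05 at the 40th percentile, 1.22 without mitochondrial UMIs, 1.27 at 20% or less mitochondrial UMIs, 1.18 with 20000 UMIs or more, 1.10 with other S and G2/M genes, 1.17 as a per-cell mean, and 1.17 for genes with 1 UMI or fewer in mock. Of 932 values of lists and named genes past 2-fold, 931 kept their direction. Among them are genes named for the highest or lowest ratios, and genes that were counted only through the UMIs of DAC-treated low cells. All alternatives used the same libraries, so that the direction of such values could hardly turn. The count is therefore not evidence of stability. *CCNB2* turned and was 0.59 with medians within each library, and the cause of this turn was not tested.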

Other observations

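The low cell with the highest share of selected genes stood apart from the rest. In this DAC-treated cell of 24349 UMIs, 10.3% of the UMIs came from selected genes, against 3.12% in the next of the 223 other low cells. Its leading selected genes, named after their values were seen, were *H3.Y* (159 UMIs), *RFPL4B* (132 UMIs), *PRAMEF12* (107 UMIs), and *PRAMEF14* (96 UMIs), of which *H3.Y*, a histone H3 variant gene, *RFPL4B*, and *PRAMEF12* are known as targets of DUX4, a transcription factor of the early embryo. The 223 other DAC-treated low cells together had 36 UMIs of *H3.Y*, 28 of *RFPL4B*, 7 of *PRAMEF12*, and 1 of *PRAMEF14*. Over all 1119 other filtered DAC-treated cells, *H3.Y* had 712 UMIs in 43 cells and *RFPL4B* had 206 UMIs in 92 cells. There, *PRAMEF12* had 240 UMIs in 25 cells and *PRAMEF14* had 12 UMIs in 10 cells. Filtered mock-treated cells had 0 UMIs of these 4 genes. *PRAMEF* genes are close copies of each other, so that the counts of single members are uncertain.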
